A study of Mus musculus with 6 samples.

Results

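The nuclear-encoded subunits of the oxidative phosphorylation complexes were followed in kidney RNA of newborn mice, with 55 subunit genes taken by name and matched to probes through their accessions. They comprised 30 genes of complex I, 4 of complex II, 7 of complex III, 9 of complex IV and 5 of complex V, out of 21220 genes tested. All 55 were represented by at least 1 probe, and the probe that stood for each was well above background on all 6 arrays. Kidneys came from neonates about 6 hours old, all labelled male, and 3 carried the label Usp10 knockout (KO) and 3 the label wild type (WT). Usp10 encodes a deubiquitinating enzyme. How the allele was made, the strain and the part of the gene that was removed are not given in the sources used here. By the study's design each single-colour array carried kidney RNA of a separate neonate, and in such bulk tissue fewer cells of a type and less RNA per cell cannot be told apart.

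Oxidative phosphorylation takes place in the inner mitochondrial membrane. Complexes I and II pass electrons from NADH and succinate to ubiquinone, complex III passes them on to cytochrome c, and complex IV reduces oxygen. Complexes I, III and IV pump protons, and complex V, the ATP synthase, uses the gradient to make ATP. Most subunits are encoded in the nucleus and the remainder in mitochondrial DNA. In the kidney the tubule, above all its proximal part, relies on this pathway for transport of salt and solutes.

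Several facts about the arrays bear on every value below. Between 64.4% and 73.9% of spots were well above background, and the number of arrays limits the precision. By scan time, KO replicates 1 and 2 and WT replicates 2 and 3 formed one set and KO replicate 3 and WT replicate 1 another. They are called slide 1 and slide 2 here for short, and no slide identity was read, so slide means scan set throughout. The Usp10 probe gave more signal on the arrays labelled KO, by 0.50 ± 0.16 (SE) in log2, and did not pass the test (limma adjusted p = 0.414), so the group names and every direction rest on the labels. That probe checks nothing if it lies outside the removed part. On WT replicate 2 the Y-linked Eif2s3y stood at -8.11, against 1.14 to 2.65 on the other arrays. Xist, the RNA of the inactive X chromosome, stood at -0.62 on WT replicate 1 and 0.43 on WT replicate 2 by its brighter probe, which was not well above background on the other 4 arrays. WT replicate 2 thus went against the label male, and WT replicate 1 carried both Xist and Y-linked signal (Eif2s3y 1.14), so values against WT replicate 3 alone are given beside each complex. Kidney markers fixed with the design were present, with 14 of 14 proximal tubule, 6 of 6 podocyte and 7 of 7 nephron progenitor genes well above background on all 6 arrays.

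Levels are log2 of the processed intensity minus the array's 75th percentile, and differences are KO minus WT on that log2 scale. A gene passed at a limma adjusted p under 0.05 over all 21220 genes, and 17 genes did, 4 higher (0.0189% of genes tested) and 13 lower (0.0613%).

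Many oxidative phosphorylation genes carry binding motifs for NRF1 and for ETS proteins such as GABPA near their start sites, which is shown here for the members before their values. RefSeq promoter windows of build GRCm38.p6, from 250 bases before to 50 bases after the start, matched 45 of the 55 members. Short motifs were searched on both strands: NRF1 as GCGCANGCG, ETS as CCGGAAG, YY1 as AAGATGGCG and the ERR element as TCAAGGTCA. The NRF1 motif lay in windows of 13 of the 45 members (28.9%), against 7.03% of 27025 genes in the table, and the stricter form GCGCATGCG, which is contained in it, in 3 (6.67% against 1.95%). The ETS motif lay in 10 members (22.2% against 9.93%), the YY1 motif in 5 (11.1% against 1.64%) and the ERR element in 1, Sdhd (2.22% against 0.466%). The stretches below belong to the member of complexes I, III, IV and V with the smallest unadjusted p among those with an NRF1 or ETS match, so that a reader can see where the matches lie. Capitals mark every motif match, overlapping matches run together, and each is written in the direction of the gene.
Ndufs6, chr13:73328433-73328517, minus strand: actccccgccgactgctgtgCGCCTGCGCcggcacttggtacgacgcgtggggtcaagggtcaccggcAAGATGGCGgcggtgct
Uqcrc1, chr9:108936634-108936697, plus strand: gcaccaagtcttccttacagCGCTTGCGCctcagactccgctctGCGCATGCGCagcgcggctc
Cox6a1, chr5:115348958-115349140, minus strand: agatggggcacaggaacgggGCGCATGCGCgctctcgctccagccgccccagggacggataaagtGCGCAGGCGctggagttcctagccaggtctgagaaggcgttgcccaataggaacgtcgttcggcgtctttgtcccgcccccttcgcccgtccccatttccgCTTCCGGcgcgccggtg
Atp5c1, chr2:10080431-10080469, minus strand: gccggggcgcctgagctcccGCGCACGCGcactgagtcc

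In Ndufs6 the NRF1 match began 15 bases upstream of the start and the YY1 match 33 bases downstream. Cox6a1 held the palindromic form of the NRF1 motif, with matches beginning 162 and 161 bases upstream, a further one 117 bases upstream, and an ETS match 16 bases upstream. A match describes letters in the window and not a bound site. The median difference was 0.16 over the 13 members with an NRF1 match and 0.15 over the 32 without, and 0.10 over the 10 with an ETS match against 0.17 over the 35 without.

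No member passed the test between the groups, where 0.0801% of all genes did in either direction. Of the 55 members 43 had a positive difference, where 53.7% of all genes did, and 12 a negative one. The median difference was 0.16 over the members and 0.031 over all genes, and single members ranged from -0.36 (Atp5d) to 0.69 (Cox6c), or from 0.777-fold to 1.62-fold. Limma adjusted p lay between 0.461 and 0.997. At an unadjusted p under 0.05 there were 2 members on the positive side, Cox6c and Atp5a1, where 6.21% of all genes were, and 0 on the negative side, where 4.17% of all genes were. The groups did not overlap for 6 members with higher KO values, against 10.2% of all genes, and for 1 member with lower KO values, against 7.99%. With 95% confidence the difference of 52 of the 55 members lay within 1 of zero in log2, so changes of 2-fold or more were outside the interval for these, while the median interval reached 0.44 to each side.

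**Figure D1:**
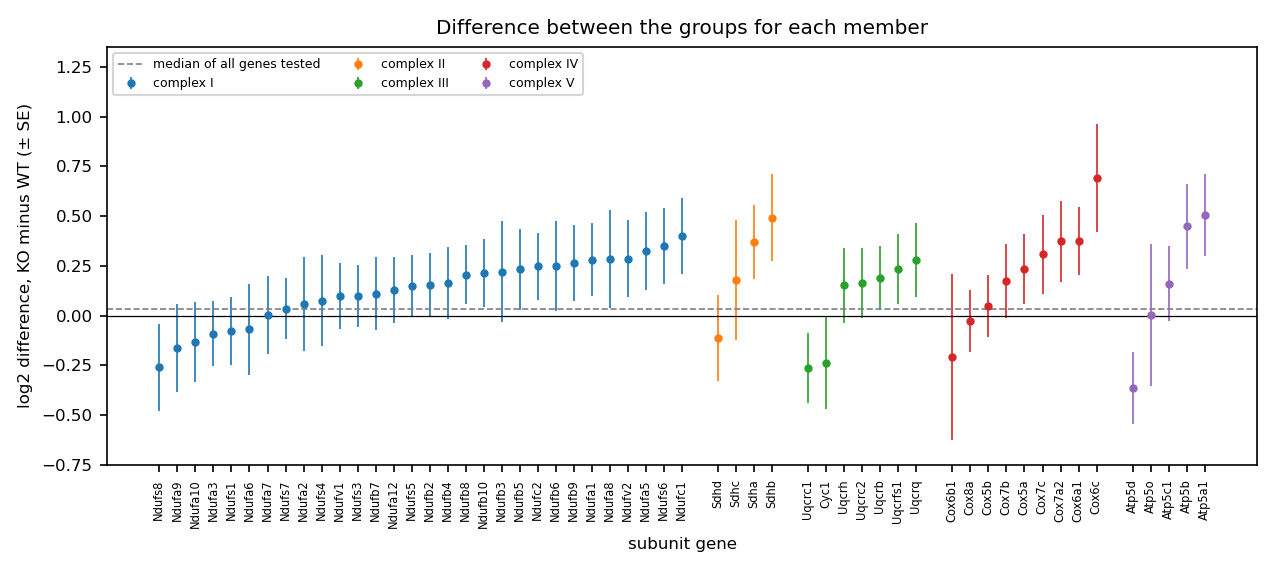
Log2 difference between KO and WT (y axis, point, with its SE as the bar) for each of the 55 subunit genes (x axis), ordered within complexes I to V, with the median of all genes tested as a dashed line. Most points lie above zero, from -0.36 for Atp5d to 0.69 for Cox6c, and no member passed the test.

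The positive count depended on how the arrays were scaled, and so did that of all genes. It was 43 with the 75th percentile (53.7% of all genes positive), 41 with the array median (49.8%), 33 with normexp and quantile normalisation (48.0%) and 32 with quantile normalisation (47.6%). With normexp correction before the 75th percentile it was 38, where 68.9% of all genes were positive, a share close to that of the members. The members' median was 0.029 with quantile normalisation, where that of all genes was -0.021. With normexp and the 75th percentile the median of all genes was 0.15, a shift of over 0.1, and the members' median was 0.097, a difference of -0.048 from it. Under each of the other 20 settings run the members' median was above that of all genes.

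**Figure D2:**
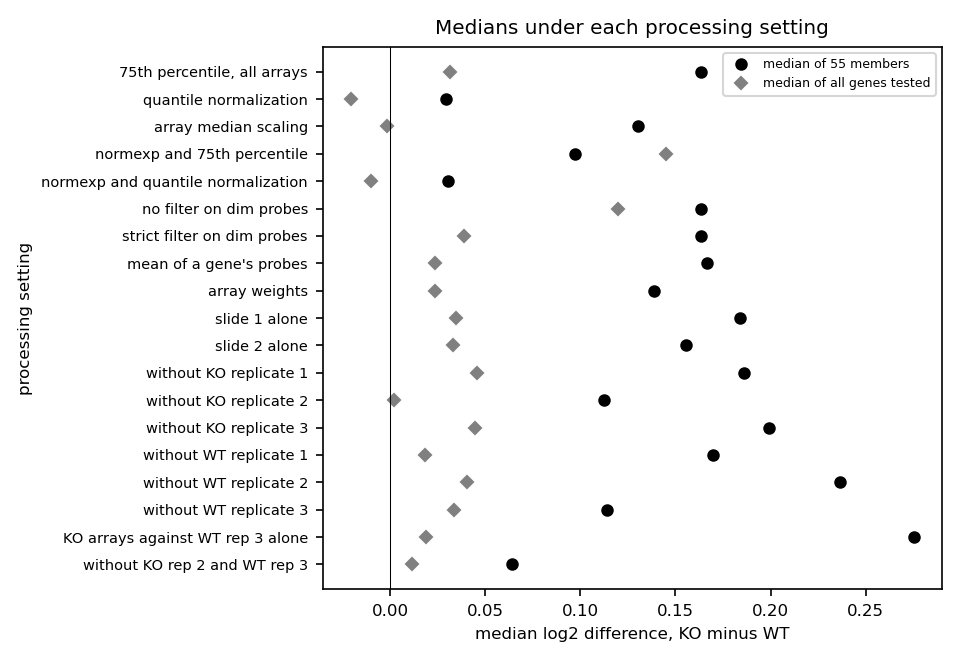
Median log2 difference, KO minus WT (x axis), of the 55 members (black circles) and of all genes tested (grey diamonds) under the processing settings drawn (y axis). Trend and robust variance, the slide block and the replicate block are not drawn, and each gave medians of 0.16 and 0.031. The members' median ranged from 0.029 with quantile normalisation to 0.28 with the KO arrays set against WT replicate 3 alone, and it lay left of the median of all genes with normexp and the 75th percentile.

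The spread between arrays of one group was of the same order as the difference between the groups. For each gene the deviation from its own mean over the 6 arrays was taken, and the median over the 55 members was 0.058, 0.19 and 0.025 on KO replicates 1, 2 and 3. It was -0.096, 0.065 and -0.19 on WT replicates 1, 2 and 3. The groups overlapped, since WT replicate 2 lay above KO replicates 1 and 3. WT replicate 3 was the lowest of the 6 arrays for 29 members (52.7%, against 24.6% of all genes), and KO replicate 2 the highest for 23 (41.8%, against 28.5%). These arrays also stood at the ends of the scale used to level the arrays, with a 75th percentile intensity of 305.7 on KO replicate 2, 581.6 on WT replicate 3 and 326.7 to 494.1 on the other arrays. Of the total signal, 39.1% came from the top 1% of spots on KO replicate 2 and 29.4% to 31.9% on the others. KO replicate 1 exceeded WT replicate 2 in 21 members only and was below it in 34. Without KO replicate 2 the members' median was 0.11, without WT replicate 3 it was 0.11, and without both, an alternative chosen after the data were seen, it was 0.064 with 38 members positive. Of the 20 members with the smallest p in their complex, 9 had a difference over 1.5 times smaller without WT replicate 3, 13 with quantile normalisation, and 19 without both arrays. Without WT replicate 3 these included Ndufa5 (0.17), Ndufs6 (0.19), Sdha (0.22) and Cox7a2 (0.20).

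**Figure D3:**
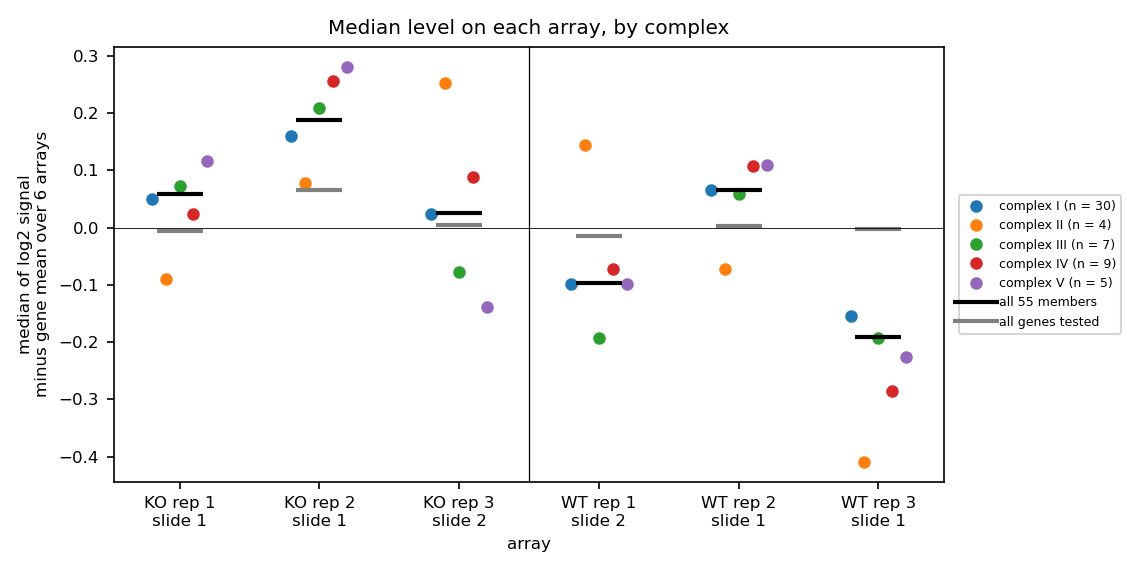
Median over the members of each complex of the log2 signal minus the gene's own mean over the 6 arrays (y axis), on each array (x axis), with black bars for all 55 members and grey bars for all genes tested. KO replicate 2 has the highest bar of the members (0.19) and WT replicate 3 the lowest (-0.19), while WT replicate 2 (0.065) lies above KO replicates 1 and 3.

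Other measures also differed between arrays, some of them on KO replicate 2 and some between the groups, and their part in the members' values was not tested. On KO replicate 2 the proximal tubule gene Miox, a myo-inositol oxygenase, stood at 0.13, against 3.01 to 3.97 on the other 5 arrays. Most of the 14 proximal tubule markers were lowest on that array, while Aqp1 (4.16) and Hnf4a (5.27) were highest there. The summed linear level of the 14 proximal tubule markers, relative to the 75th percentile, was 132 on that array. It was 161 to 174 on the other KO arrays and 143 to 159 on the WT arrays. The podocyte sum was 18.5 on that array, 33.2 and 36.7 on the other KO arrays and 23.6 to 35.0 on WT arrays. For the collecting duct it was 21.4, against 11.1 and 20.0 on KO and 11.6 to 16.4 on WT arrays. For the loop of Henle and distal tubule it was 31.1, against 18.8 and 25.1 on KO and 21.0 to 23.6 on WT arrays. The sum of the 6 macrophage markers measured was 5.0 to 5.29 on KO arrays and 5.63 to 6.64 on WT arrays, without overlap. Of the 6, 5 lay below zero, 3 of them with an unadjusted p under 0.05. Cx3cr1 differed by -1.58 ± 0.21 (limma adjusted p = 0.061), and it passed with slide as a block (adjusted p = 0.036), where 0.250% of all genes did. Csf1r, by far the brightest of the 6, differed by -0.11 ± 0.17 with overlapping groups. Of 7 nephron progenitor markers 6 lay below zero (median -0.63), 3 of them with an unadjusted p under 0.05, among them Cited1 (-0.68), and the summed level was 11.9 to 18 on KO and 13.2 to 18.9 on WT arrays. Of 6 endothelial markers 5 lay below zero (median -0.26), 2 of them with an unadjusted p under 0.05. Their sums were 11.4 to 15.7 on KO and 14.2 to 17.7 on WT arrays. Beside the macrophage, progenitor and endothelial counts at that p, 4.17% of all genes were lower. The 7 adrenal cortex markers summed to 0.564 to 0.702 on KO and 0.420 to 0.477 on WT arrays, also without overlap, with Cyp11a1 and Cyp11b2 well above background on no array. The 4 of them that were tested were divided, Hsd3b1 at 1.78 and Mc2r at 0.33 against Cyp11b1 at -0.60 and Cyp21a1 at -0.08, and none passed. Among adipocyte and muscle markers, whose tissues are rich in mitochondria, Ucp1, Adipoq, Plin1, Cfd and Ckm were well above background on no array. The 8 muscle markers summed to 0.698 to 1.15 on KO and 0.812 to 1.12 on WT arrays, and the 8 adipocyte markers to 33.0 to 42.7 and 35.2 to 40.5. That adipocyte sum came almost wholly from Fabp4 (5.04 to 5.41 in log2), and 2 of the 8 genes were well above background on all 6 arrays. Within the muscle sum, Myl1 (1.34, limma adjusted p = 0.0924) and Tnnc2 (0.87) were higher on all KO than on all WT arrays, and Acta1 stood at -0.79. The mean level of the probe also moved with the difference, with r = 0.69 (Spearman 0.57) across the 55 members, which share the same 6 arrays, and r = 0.096 across all genes. All 5 members with a mean level between 0 and 2 had a negative difference (median -0.26, against 0.039 for all genes in that range). Of the 50 members above 2, 43 were positive (median 0.18), and all genes above 2 had a median of 0.14.

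**Figure D4:**
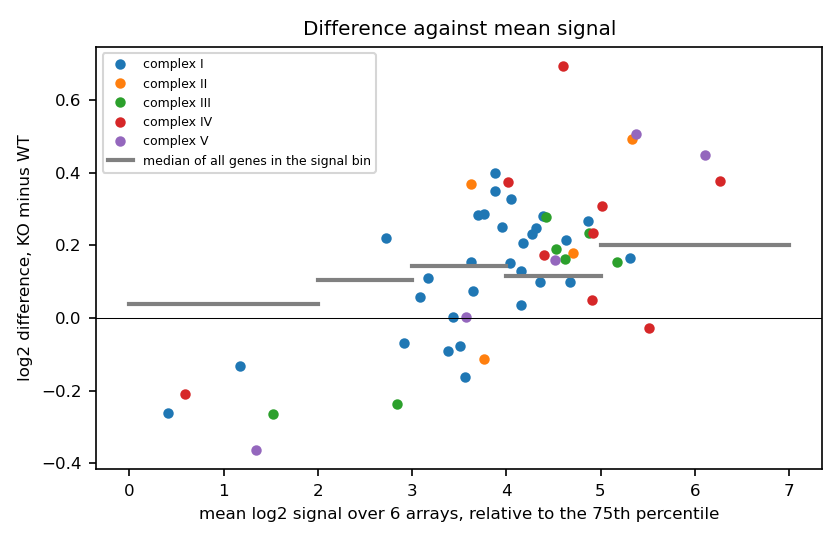
Log2 difference, KO minus WT (y axis), against the mean log2 level of the probe over 6 arrays (x axis) for the 55 members, coloured by complex, with grey bars for the median of all genes in each range of levels. The 5 members below a level of 2 all lie below zero, and the grey bars stand at 0.039 between 0 and 2, 0.14 between 3 and 4, 0.11 between 4 and 5 and 0.20 above 5.

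In many members the slides differed as much as the groups did. The absolute difference between slides, averaged over the groups, exceeded that between the groups in 28 of 55 members (50.9%, against 55.4% of all genes), and 31 members were lower on slide 2 and 24 higher. Cox6b1, a subunit of complex IV, was 1.13 lower on slide 2 in log2, and Sdhc 0.71 higher by its brighter probe. Within slides 1 and 2 the members' median was 0.18 and 0.16. With slide as a block 0 members passed in limma, where 0.250% of all genes did, and the smallest adjusted p was 0.260. At an unadjusted p under 0.05 there were then 5 members with a positive difference (Sdhb, Cox6a1, Cox6c, Atp5a1 and Atp5b), where 10.6% of all genes were, and 1 with a negative one (Atp5d), where 7.13% were.

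**Figure D5:**
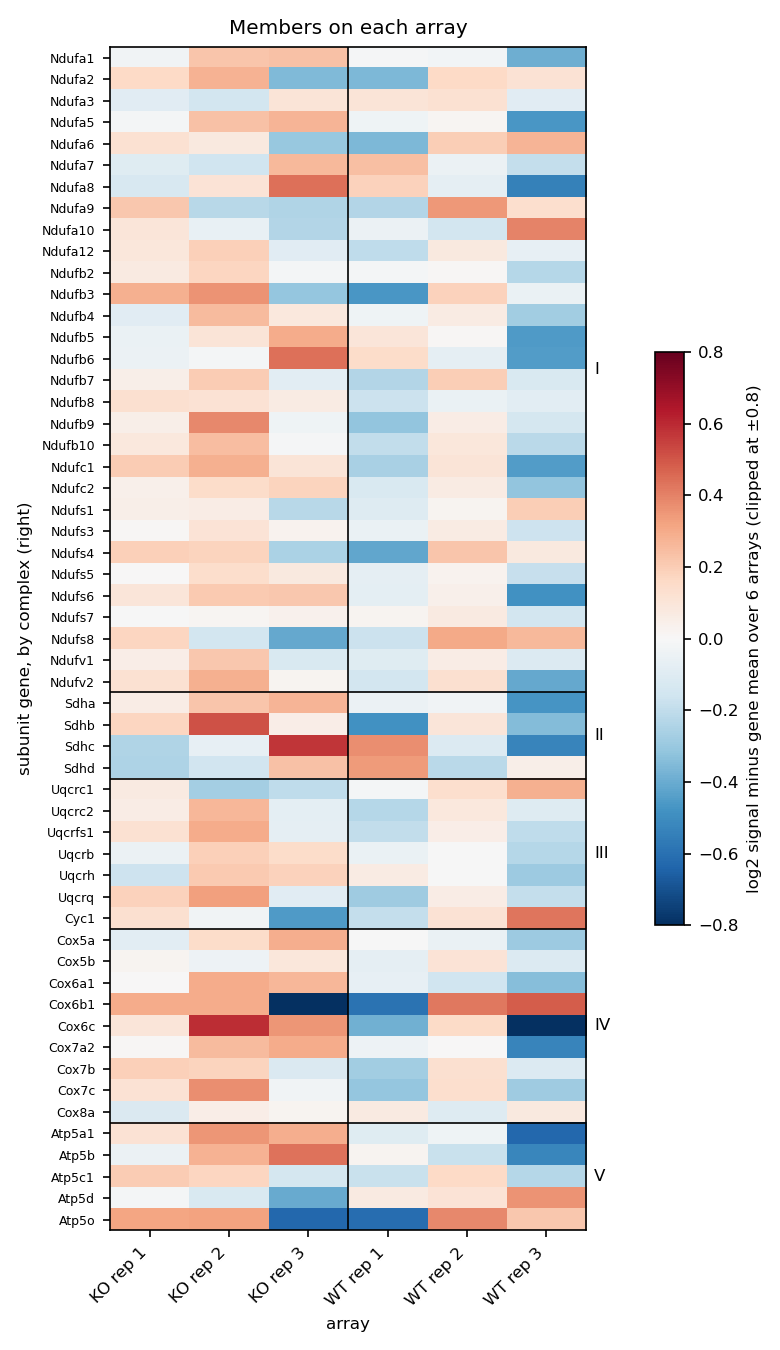
Log2 level minus the gene's own mean over the 6 arrays (colour, red above and blue below, clipped at 0.8) for the 55 members (rows, grouped by complexes I to V) on each array (columns). WT replicate 3 is blue for most rows, and Cox6b1 and Atp5o are low on both arrays of slide 2, KO replicate 3 and WT replicate 1.

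Complex I, the NADH dehydrogenase, had 24 of 30 members with a positive difference and 6 with a negative one, with a median of 0.15. None passed (limma adjusted p 0.503 to 0.997), and 0 had an unadjusted p under 0.05, where 6.21% of all genes were higher and 4.17% lower. Slide 1 gave a median of 0.17 and slide 2 one of 0.15, and setting the KO arrays against WT replicate 3 by itself gave 0.20. It was 0.089 without KO replicate 2, 0.086 without WT replicate 3 and 0.0066 with quantile normalisation, where the median of all genes was -0.021.

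Ndufc1, a small accessory subunit of the membrane arm, stood at 4.08, 4.16 and 3.98 on KO replicates 1, 2 and 3 and at 3.62, 3.98 and 3.43 on WT replicates 1, 2 and 3. WT replicate 2 reached the lowest KO array, so the groups overlapped. Its difference was 0.40 ± 0.19 (SE, 1.32-fold, limma adjusted p = 0.503), the largest in complex I. Ndufs6, a zinc-binding accessory subunit of the matrix arm whose promoter is shown above, stood at 3.98, 4.09 and 4.10 on KO and 3.8, 3.92 and 3.39 on WT arrays. All KO arrays lay above all WT arrays, with WT replicate 3 far below the others, and the difference was 0.35 ± 0.19 (adjusted p = 0.530).

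Ndufa5, an accessory subunit of the arm that faces the matrix, stood at 4.03, 4.28 and 4.32 on KO and 4.01, 4.07 and 3.58 on WT arrays, so the groups overlapped (difference 0.33 ± 0.20, limma adjusted p = 0.556). Its dimmer second probe, also well above background on all arrays, gave 1.75, 1.82 and 1.03 on KO and 1.14, 1.80 and 1.92 on WT arrays, a difference of -0.08 and thus of the opposite sign. Ndufa1, a small X-linked subunit, stood at 4.36, 4.61 and 4.62 on KO and 4.38, 4.37 and 3.99 on WT arrays. The groups overlapped here too, with a difference of 0.28 ± 0.18 (adjusted p = 0.580).

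The remaining 26 genes of complex I ranged from -0.26 (Ndufs8) to 0.29 (Ndufv2), 20 of them positive. The 6 core subunits of the matrix arm, which carry the flavin and iron-sulphur clusters or hold them in place, had a median of 0.066, with 4 positive. Among these Ndufv1, which binds NADH and flavin, differed by 0.10 ± 0.17 and Ndufv2 by 0.29 ± 0.19. Ndufs3 (0.10), Ndufs7 (0.034) and Ndufs1 (-0.08) were near zero, and Ndufs8 stood at -0.26 ± 0.22. The 24 accessory subunits had a median of 0.18, with 20 positive, and the contrast between core and accessory genes was not tested.

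All 9 Ndufb genes, accessory subunits of the membrane arm, had a positive difference, from 0.11 (Ndufb7) to 0.27 (Ndufb9). For Ndufb8 the KO arrays (4.30, 4.29 and 4.24) lay above the WT arrays (4.0, 4.12 and 4.09), with SDs of 0.03 and 0.06 and a difference of 0.20 ± 0.15 (limma adjusted p = 0.610). Of the 10 Ndufa genes 6 were positive, and the lowest was Ndufa9 (-0.16 ± 0.22), followed by Ndufa10 (-0.13 ± 0.20). Ndufa7 differed by 0.0019 between the groups. Ndufs4, whose human counterpart is a known gene of mitochondrial disease, differed by 0.08 ± 0.23, with 3.23 on WT replicate 1 and 3.87 on WT replicate 2.

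Complex II, succinate dehydrogenase, takes part in both the citric acid cycle and the respiratory chain and is encoded in the nucleus alone. Of its 4 members 3 had a positive difference, none passed (limma adjusted p 0.483 to 0.855), and the median was 0.27. The median was 0.28 within slide 1 and 0.26 within slide 2. It was 0.13 without KO replicate 3, 0.091 without WT replicate 3 and 0.61 against WT replicate 3 alone. Quantile normalisation gave 0.14, and 0.13 after normexp correction.

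Sdhb, the iron-sulphur subunit, stood at 5.51, 5.85 and 5.39 on KO and 4.85, 5.43 and 4.99 on WT arrays. WT replicate 2 exceeded KO replicate 3, so the groups overlapped, and the difference was 0.49 ± 0.22 (1.41-fold, limma adjusted p = 0.483). A second, dimmer probe of Sdhb gave 0.39. For Sdha, the flavoprotein that oxidises succinate, the levels were 3.68, 3.85 and 3.90 on KO and 3.58, 3.59 and 3.15 on WT arrays. These groups did not overlap, and the difference was 0.37 ± 0.19 (adjusted p = 0.514).

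By the probes that stood for them, the membrane anchors Sdhc and Sdhd followed slide more than group. Sdhc stood at 4.47, 4.65 and 5.28 on KO and 5.08, 4.60 and 4.18 on WT arrays, highest on the pair from slide 2. Its difference was 0.18 ± 0.30 (limma adjusted p = 0.832), which turned to -0.062 without KO replicate 3 and to -0.042 without WT replicate 3. The dimmer probe gave 1.23, 1.19 and 0.97 on KO and 1.14, 1.15 and 1.44 on WT arrays, a difference of -0.11. That probe was lowest on slide 2 in the KO group, while WT replicate 1 (1.14, slide 2) and WT replicate 2 (1.15, slide 1) were nearly equal. The higher level of the brighter probe on slide 2 was thus not seen with the dimmer one. Sdhd stood at 3.52, 3.61 and 4.0 on KO and 4.10, 3.54 and 3.81 on WT arrays, with a difference of -0.11 ± 0.22 (adjusted p = 0.855), or 0.030 without WT replicate 1.

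Complex III, the cytochrome bc1 complex, had 5 of 7 members with a positive difference and a median of 0.16. None passed (limma adjusted p 0.584 to 0.765), and 0 had an unadjusted p under 0.05, where 6.21% of all genes were higher and 4.17% lower. Within slides 1 and 2 the median was 0.17 and 0.12. It was 0.087 without KO replicate 2, 0.32 against WT replicate 3 alone and 0.031 with quantile normalisation.

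Uqcrc1, a large core protein on the matrix side whose promoter is shown above, stood at 1.59, 1.25 and 1.32 on KO and 1.5, 1.65 and 1.80 on WT arrays. KO replicate 1 exceeded WT replicate 1, and the difference was -0.27 ± 0.18 (limma adjusted p = 0.584). Its partner Uqcrc2 was positive, at 0.16 ± 0.18. Uqcrq, a small subunit, stood at 4.60, 4.75 and 4.33 on KO and 4.14, 4.48 and 4.23 on WT arrays, with overlap between KO replicate 3 and WT replicate 2 (difference 0.28 ± 0.19, adjusted p = 0.585).

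Uqcrfs1, the Rieske iron-sulphur protein, stood at 5.0, 5.17 and 4.80 on KO and 4.68, 4.93 and 4.67 on WT arrays, a difference of 0.23 ± 0.18 with overlapping groups. For Uqcrb, another small subunit, the levels were 4.48, 4.72 and 4.68 on KO and 4.47, 4.53 and 4.30 on WT arrays (difference 0.19 ± 0.16). Its 3 probes, from the brightest to the dimmest, gave 0.19, 0.07 and 0.43. Cyc1, the cytochrome c1 that hands electrons to cytochrome c, had a negative difference of -0.24 ± 0.23, with its highest level, 3.26, on WT replicate 3. Uqcrh, the hinge protein, differed by 0.15 ± 0.19.

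Complex IV, cytochrome c oxidase, reduces oxygen to water, and 7 of its 9 members had a positive difference, with a median of 0.23. None passed (limma adjusted p 0.461 to 0.954), and 1, Cox6c, was higher at an unadjusted p under 0.05, where 6.21% of all genes were. Slide 1 gave a median of 0.20 and slide 2 one of 0.28. With WT replicate 3 as the sole WT array it was 0.41, and with quantile normalisation 0.095.

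Cox6c, a small regulatory subunit, had the largest difference of the 55 members. It stood at 4.70, 5.19 and 4.96 on KO and at 4.22, 4.76 and 3.8 on WT arrays. WT replicate 2 lay above KO replicate 1, so the groups overlapped, and the WT arrays spread more (SD 0.48, n = 3) than the KO arrays (SD 0.25, n = 3). The difference was 0.69 ± 0.27 (1.62-fold, 95% interval 0.06 to 1.33, limma adjusted p = 0.461). It was 0.67 within slide 1 and 0.74 within slide 2, 0.46 without WT replicate 3, 0.94 without WT replicate 2 and 1.15 against WT replicate 3 alone.

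Cox6a1, the isoform of a regulatory subunit found outside muscle, whose promoter is shown above, stood at 6.27, 6.56 and 6.53 on KO and 6.20, 6.11 and 5.93 on WT arrays. The groups did not overlap, with a difference of 0.38 ± 0.17 (limma adjusted p = 0.486). Cox7a2, likewise the form of its subunit outside muscle, stood at 4.02, 4.27 and 4.32 on KO and 3.98, 4.02 and 3.49 on WT arrays. The lowest KO and the highest WT array nearly met, and the difference was 0.37 ± 0.20 (adjusted p = 0.530). Cox7c stood at 5.13, 5.39 and 4.99 on KO and 4.70, 5.15 and 4.73 on WT arrays (0.31 ± 0.20), and its 2 dimmer probes gave 0.21 and 0.29.

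Of the other 5 complex IV genes, Cox5a (0.23 ± 0.18), Cox7b (0.17 ± 0.18) and Cox5b (0.05 ± 0.16) were positive. Cox8a gave -0.029 ± 0.16 by its brighter probe, at 5.40, 5.57 and 5.53 on KO and 5.58, 5.41 and 5.59 on WT arrays. Its other probe gave 5.08, 5.35 and 5.35 on KO and 5.07, 5.08 and 4.66 on WT arrays, a difference of 0.32, so the direction of Cox8a depended on the probe. Cox6b1, which links the monomers of the enzyme, differed by -0.21 ± 0.42 and had the widest spread of the members (SD 0.70 on KO and 0.60 on WT arrays, n = 3 each).

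Complex V makes ATP, and the 5 members are subunits of its catalytic head and stalks. Of these 4 had a positive difference, none passed (limma adjusted p 0.475 to 0.997), and the median was 0.16. It was 0.22 within slide 1 and 0.037 within slide 2. Single arrays moved it, to 0.098 without KO replicate 1, 0.32 without KO replicate 3 and 0.28 without WT replicate 2, and it was 0.31 against WT replicate 3 alone. With quantile normalisation it was 0.021.

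Atp5a1 and Atp5b encode the alpha and beta subunits that form the catalytic ring. Atp5a1 stood at 5.49, 5.72 and 5.66 on KO and 5.27, 5.34 and 4.75 on WT arrays. The groups did not overlap, and the difference was 0.51 ± 0.21 (1.42-fold, 95% interval 0.02 to 0.99, limma adjusted p = 0.475). Without WT replicate 3 it was 0.32. Atp5b stood at 6.06, 6.39 and 6.54 on KO and 6.13, 5.93 and 5.59 on WT arrays, with KO replicate 1 below WT replicate 1 (difference 0.45 ± 0.21, adjusted p = 0.50).

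Atp5d, the delta subunit of the central stalk, was the single member with all KO arrays below all WT arrays. It stood at 1.33, 1.22 and 0.94 on KO and 1.42, 1.45 and 1.70 on WT arrays, and the difference was -0.36 ± 0.18 (1.29-fold lower, limma adjusted p = 0.512). Atp5c1, the gamma subunit that turns inside the ring, whose promoter is shown above, stood at 4.72, 4.69 and 4.37 on KO and 4.34, 4.67 and 4.29 on WT arrays (0.16 ± 0.19). Atp5o, which joins the head to the outer stalk, differed by 0.0038 ± 0.36, with 2.94 and 2.96 on KO replicate 3 and WT replicate 1 and 3.79 to 3.96 on the other 4 arrays, a split by slide and not by group.

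Further genes of the same machinery were taken from lists fixed with the design. Of 22 other nuclear-encoded subunits and cytochrome c, 17 had a positive difference (median 0.14) and none passed in limma. At an unadjusted p under 0.05 there was 1 with higher KO values, where 6.21% of all genes were. That gene was Atp5g3, a ring subunit of the ATP synthase, at 5.94, 6.41 and 6.34 on KO and 5.80, 5.91 and 5.6 on WT arrays (0.46 ± 0.19, adjusted p = 0.476). Atp5l differed by 0.46 ± 0.21 and Cycs, cytochrome c itself, by 0.36 ± 0.20. Of 10 genes listed as tissue-restricted isoforms 5 were measured, and 0 had an unadjusted p under 0.05. They included Ndufa4l2 (-0.60 ± 0.32) and Cox7a1, the muscle form of Cox7a2 (-0.09 ± 0.19). The 1 positive gene was Cox7a2l (0.29 ± 0.20), at 5.04 to 5.81 on the arrays, far brighter than the others measured. Its place among tissue-restricted isoforms thus rests on the list alone. The 13 mitochondrially encoded subunits were not analysed here, since the tables used did not pair their probes with names.

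Assembly factors, which build the complexes but do not stay in them, were divided, with 24 of 43 measured genes positive and a median of 0.046. None passed, and 2, both lower on KO arrays, had an unadjusted p under 0.05, where 4.17% of all genes were lower. They were Sco2, a copper chaperone of complex IV, and Coa4. Sco2 stood at -1.19, -1.08 and -1.27 on KO and -0.57, -0.70 and -0.19 on WT arrays, without overlap (-0.69 ± 0.19, limma adjusted p = 0.353). Coa4 differed by -0.54 ± 0.17 (adjusted p = 0.404) and Cox19, which also serves copper delivery, by -0.36 ± 0.16 (adjusted p = 0.482).

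Enzymes of the citric acid cycle and pyruvate dehydrogenase had 7 of 16 positive, with a median of -0.083, none passing and 0 at an unadjusted p under 0.05. Mdh2 (0.37 ± 0.19), Sucla2 (0.32 ± 0.18) and Pdhb (0.27 ± 0.18) had the smallest p. The list of mitochondrial carriers, porins and import genes, in which Cox7a2l was counted again, had 11 of 14 positive and a median of 0.19. Among them Tomm20, an import receptor of the outer membrane, stood at 5.27, 5.5 and 5.46 on KO and 5.03, 5.0 and 4.69 on WT arrays (0.51 ± 0.17, limma adjusted p = 0.424). It was the 1 gene of that list with an unadjusted p under 0.05, where 6.21% of all genes were higher. The lists also differed in level. Most assembly factors, and most of the regulators described next, had a mean level under 2, while most carriers and other subunits lay above it. All genes between 0 and 2 had a median difference of 0.039, and all genes above 2 one of 0.14. The differences between these lists were not tested, and the list medians take no account of level.

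Regulators of mitochondrial biogenesis had 8 of 15 measured genes positive, with a median of 0.017, and none passed. At an unadjusted p under 0.05 there were 2 with higher KO values, Ppargc1a and Esrrb, and 1 with lower, Polg. Of all genes 6.21% were higher and 4.17% lower at that p. Ppargc1a, the coactivator that drives transcription of respiratory genes, stood at 4.24, 4.30 and 3.93 on KO and at 3.22, 3.66 and 3.33 on WT arrays. All KO arrays lay above all WT arrays, and the difference was 0.75 ± 0.19 (1.69-fold, limma adjusted p = 0.328, or 0.129 once slide was blocked). Its dimmer probe gave 0.93. The difference was 0.77 within slide 1 and 0.71 within slide 2.

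Of the factors whose motifs were searched, Nrf1 differed by 0.12 ± 0.33, Gabpa, an ETS protein, by -0.07 ± 0.19, Yy1 by -0.0045 ± 0.16 and Esrra by -0.0053 ± 0.20. Tfam, which acts on mitochondrial DNA, differed by -0.12 ± 0.15. Esrrb, an orphan receptor that binds the same ERR element as its relative Esrra, stood at 0.75, 2.16 and 1.41 on KO and 0.39, 0.60 and 0.23 on WT arrays (1.03 ± 0.34, limma adjusted p = 0.423), with all KO arrays above all WT arrays and the highest level on KO replicate 2. Polg, the mitochondrial DNA polymerase, had a negative difference of -0.69 ± 0.22 (adjusted p = 0.414).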

How the data were processed

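The 6 arrays were read with Agilent's Feature Extraction software, whose version reads 11.0.1.1 in the file headers, while the submitters' processing notes name 9.1. The deposited intensity has background subtracted, per the file headers, and no scaling across arrays. Of 44397 spots 1377 controls were left out. Spots marked as outliers were dropped, values were put on a log2 scale, each array's 75th percentile of non-control spots was subtracted, and repeat spots were averaged per probe. Accessions named 27234 of 39429 probes (69.1%) through RefSeq (GRCm38.p6). Probes detected above background on every array of at least 1 group were kept, and the brightest stood for its gene. Of the members 12 had several probes. Differences were tested in limma 3.58.1 under R 4.3.3 (two-sided, Benjamini-Hochberg over all genes) without a block. With 3 arrays a group an exact permutation test cannot go below 0.1. The fit was tested on simulated data. Nothing in the labels besides separate neonates defines the replicates.

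The members, lists and rules were chosen with earlier results of these data known. Array levels are given for the 4 members per complex with the smallest unadjusted p, members whose probes disagreed in sign, and up to 3 genes of each context list. Single array levels of Ndufb8, Ndufs4, Cyc1, Atp5o, Miox, Aqp1, Hnf4a and Fabp4 were chosen after their values were seen. Lists are described by counts and medians without a test. Alternatives changed scaling, background correction, filter, probes, variance, weights, blocks and arrays.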

Additional observations from a re-analysis of the deposited data

How the results depend on the processing

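No member passed under any of the 20 settings with a test (lowest limma adjusted p 0.260). In the fit without a block 2 members, both higher on KO arrays, had an unadjusted p under 0.05, where 6.21% of all genes were higher. With slide as a block 5 were higher, where 10.6% of all genes were, and 1 lower, where 7.13% were. Without KO replicate 2 there were 0. The count over all genes, 17, was 45 with trend and robust variance, 36 with array weights, 53 with slide as a block, 1 with a strict filter or the mean of probes, and 0 with normexp and quantile normalisation, no filter on dim probes, WT replicate 3 alone, or without both KO replicate 2 and WT replicate 3. At an unadjusted p under 0.05 those last 4 gave 2250, 2050, 2020 and 744 genes. It was 74 at an adjusted p of 0.1 and 2202 at an unadjusted p of 0.05. Leaving out single arrays gave 0 to 28 genes (1071 to 2653 at an unadjusted p under 0.05).

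The members' median was 0.029 with quantile normalisation, 0.031 with normexp and quantile normalisation and 0.28 against WT replicate 3 alone, and that of complex I 0.0066 and 0.0099 under those quantile settings. Against WT replicate 3 alone complexes II, III and IV gave 0.61, 0.32 and 0.41. Without single arrays the medians were 0.11 to 0.24 over all members, 0.086 to 0.22, 0.091 to 0.39, 0.087 to 0.24, 0.16 to 0.33 and 0.098 to 0.32 for complexes I to V. Of 420 values of 20 named members 3 changed sign, for Sdhc without KO replicate 3 (-0.062) or WT replicate 3 (-0.042) and Sdhd without WT replicate 1 (0.030, against -0.26 to -0.017 without any other single array). The cause was not tested.

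The deviations of same-numbered arrays correlated at -0.397, 0.481 and -0.601, and only the pair with 0.481 lay on a single slide. KO replicate 3 and WT replicate 1, which share a slide but no number, gave 0.887. These values mix number with slide and cannot decide whether the numbers pair the samples. With the replicate block 0 genes and 0 members passed in limma (1611 genes at an unadjusted p under 0.05) and the members' median was 0.16. Precision is limited by the number of arrays, and all 55 members were above background on every array.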
